A study of Mus musculus with 9 samples.

Results

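The comparison set embryoid bodies carrying a hairpin against Pfkp (sh-Pfkp, 3 libraries) beside embryoid bodies carrying a control hairpin (sh-ctrl, 3 libraries). These were 6 of the 9 RNA-seq libraries of the series, taken by their labels, and every gene with enough counts was described, 13158 of 22322 listed. All libraries are described as R1, a mouse embryonic stem cell line, held in suspension without LIF, the cytokine that sustains self-renewal. The labels give day 6 of embryoid body formation. The sh-ctrl cells are labelled wild type and the sh-Pfkp cells a knockdown of Pfkp. The remaining 3 libraries, with a hairpin against Lin41 (gene Trim71), entered the fit only to help estimate the spread. The labels name no second hairpin and no rescue, so an effect of this hairpin or of its cell line and an effect of lower Pfkp cannot be told apart. Whether each library is its own culture is not in the labels, and p-values therefore cover just the variation among these libraries, possibly technical.

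Phosphofructokinase adds a second phosphate to fructose 6-phosphate and so commits the sugar to glycolysis. Its subunits are encoded by Pfkp (platelet form), Pfkl (liver form) and Pfkm (muscle form). Embryonic stem cells take up much glucose and release much of it as lactate, while branches of the pathway feed glycogen, the pentose phosphate pathway, serine and lipid synthesis. The series title asks a different question of the enzyme, whether it acts as a protein kinase for Lin41 when stem cells differentiate.

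Total counts lay between 15495194 and 18091664 in sh-ctrl and between 17549322 and 19981983 in sh-Pfkp. The first principal component of log2 CPM (counts relative to the scaled library size) held 75.7% of the variance of the 6 libraries and separated the groups. Pluripotency transcripts were abundant in both groups, as 16 of 16 core factors and 19 of 20 naive factors had at least 10 CPM in sh-ctrl. Several sets of markers of other cells were mostly scarce, with under 1 CPM in sh-ctrl for 13 of 16 of the primitive streak, 7 of 13 of the definitive endoderm and 12 of 16 of cardiomyocytes, but for 9 of 24 of neuroectoderm and neurons, of which 7 reached 10 CPM. Abundant naive factors beside mostly scarce markers are a picture of largely undifferentiated cells, which stands against the labelled day 6 without LIF. Why label and markers differ was not tested. The RNA is labelled as that of whole embryoid bodies, so fewer cells of a type and less RNA per cell cannot be told apart.

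The label held for the targeted gene. Pfkp (ENSMUSG00000021196) had 248.3, 245.0 and 248.0 CPM in sh-ctrl and 102.5, 101.2 and 104.9 CPM in sh-Pfkp. The knockdown values lay together, far below every control value, at a log2 fold change (sh-Pfkp minus sh-ctrl) of -1.27 (SE 0.0271, edgeR adjusted p = 5.4e-27). The other major subunit gene, Pfkl, had 231.8, 242.2 and 253.5 CPM in sh-ctrl and 182.3, 191.2 and 190.5 CPM in sh-Pfkp. Its groups did not overlap either and its change was -0.37 (SE 0.0287). Pfkm, the least abundant subunit gene, rose by 0.33 on the log2 scale (SE 0.0585), from a mean of 24.7 to 31.0 CPM. Per length, Pfkp and Pfkl stood level in control with 81.53 and 79.89 FPKM (fragments relative to transcript length and library size) against 8.683 for Pfkm. In sh-Pfkp the mean values were 33.96, 61.74 and 10.55 FPKM, so that Pfkl became the most abundant subunit transcript. Among regulators, Pfkfb3, which makes the activator fructose 2,6-bisphosphate, fell by 0.27 (SE 0.0455). Fbp2, a fructose bisphosphatase of the opposite step, rose by 1.28 (SE 0.341) at a level under 2 CPM in every library. Both were chosen after their values were seen.

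Across the transcriptome 3721 genes were called higher and 3730 lower (edgeR, adjusted p under 0.05), 28.3% of the genes tested in each direction and 56.6% in either. The calls were mostly small, as 73.4% of called genes changed by less than 1.5-fold. Changes of at least 2-fold numbered 297 upward (2.26% of genes tested) and 560 downward (4.26%), and those of at least 1.5-fold 675 (5.13%) and 1309 (9.95%). The split changed with the fit, as 49.9% of these calls were higher against 39.7% with limma-trend on log2(FPKM + 1) (2507 higher and 3802 lower). On counts scaled by library size alone 40.3% of calls were higher (3018 higher and 4477 lower). Direction varied with level. Among genes of 1 to 10 CPM 15.8% were higher and 32.3% lower, whereas among genes of 100 to 1000 CPM 43.8% were higher and 26.7% lower. The median absolute log2 fold change fell from 0.67 under 1 CPM to 0.12 over 100 CPM. Median changes of the autosomes and the X chromosome lay between -0.04 and 0.06 for genes of at least 5 CPM. The authors' deposited table of changed genes has 923 entries, and 708 of these were among the 857 called here at 2-fold (76.7% of theirs and 82.6% of those here). Only 794 of the 923 passed the filter on low counts and were tested here.

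**Figure D1:**
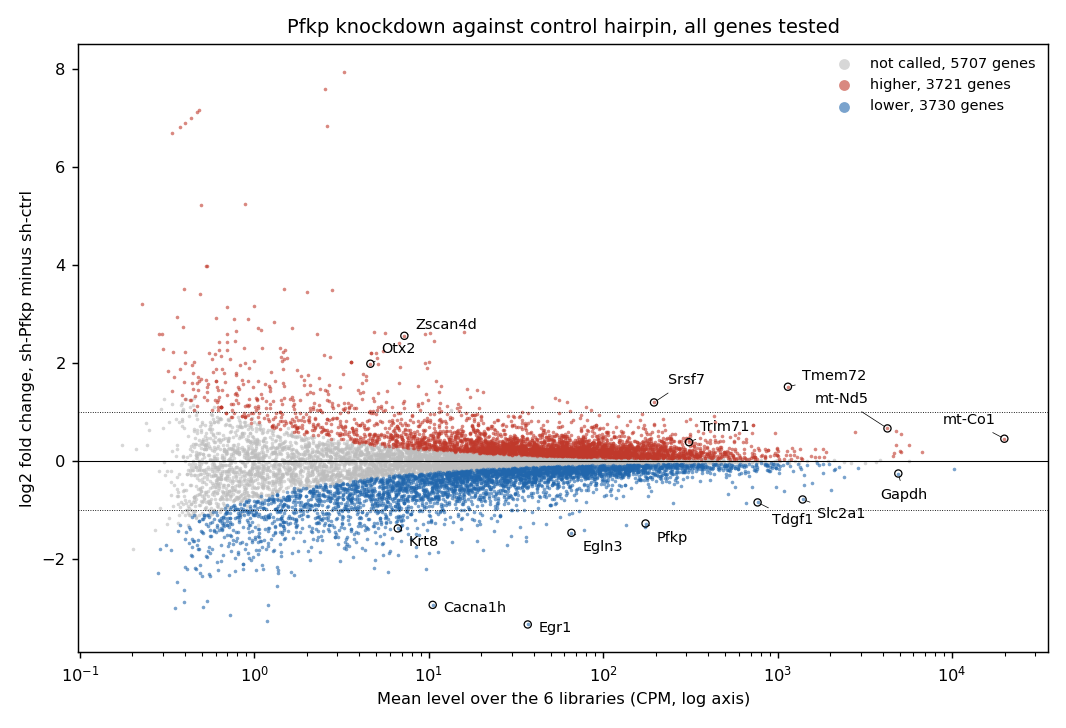
log2 fold change (sh-Pfkp minus sh-ctrl) of each of the 13158 genes tested against its mean level in CPM on a log axis. Red points were called higher (3721), blue points lower (3730) and grey points not called, dotted lines mark 2-fold, and circled genes are named in the text. Most changes past 2-fold lie at low levels, and of genes over 100 CPM 5 passed it, among them Tmem72, Srsf7 and Pfkp.

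**Figure D2:**
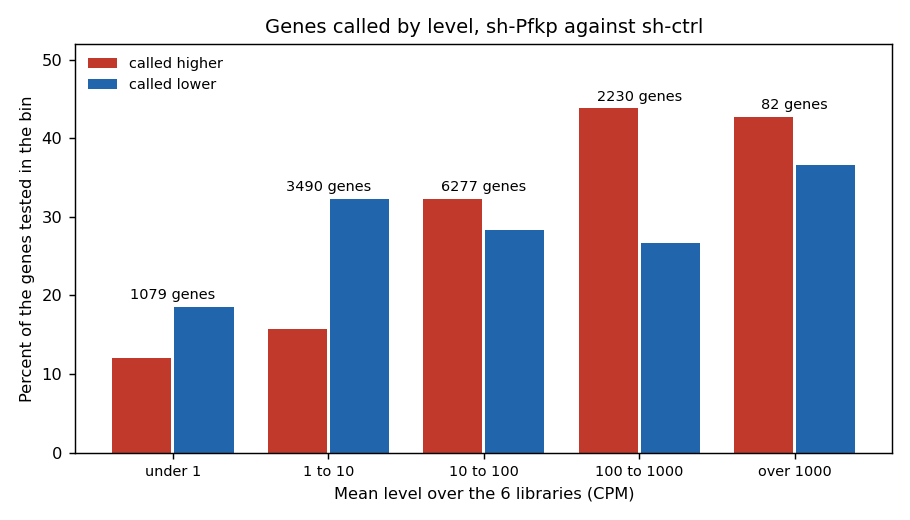
Percent of tested genes called higher (red) and lower (blue) in 5 bins of mean level in CPM, with the number of genes tested above each pair of bars. Lower calls outnumber higher calls under 10 CPM, and higher calls lead from 10 CPM upward.

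The falls reached well past phosphofructokinase along the route of glucose carbon. Of 21 glycolytic enzyme genes tested 16 fell and 1 rose, with a median log2 fold change of -0.33 against -0.005 over all genes tested. Of 10 genes of glucose and monocarboxylate transport 8 fell and 0 rose (median -0.51). Together the enzymes held 1.67% ± 0.014 of all counts in sh-ctrl and 1.26% ± 0.0071 in sh-Pfkp, and the transporters 0.508% ± 0.00094 and 0.318% ± 0.0018 (SD, n = 3 each). The glucose transporter gene Slc2a1 had 1769, 1755 and 1747 CPM in sh-ctrl and 1013, 1023 and 1038 CPM in sh-Pfkp. Every sh-Pfkp library was low, and the change was -0.78 (SE 0.0153, edgeR adjusted p = 6.79e-28). Slc2a3, the most abundant transporter per length (623.4 FPKM in sh-ctrl), fell by 0.59 on the log2 scale (SE 0.0143), and Slc2a8, an intracellular transporter, by 0.81 (SE 0.0985). The lactate exporter Slc16a3 had 196.4, 186.7 and 197.5 CPM in sh-ctrl and 80.01, 77.12 and 77.32 CPM in sh-Pfkp. That is a change of -1.31 (SE 0.0311) with well separated groups.

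Enzymes fell by unequal amounts. Hk1, a hexokinase that traps glucose in the cell, had 64.25, 63.81 and 64.97 CPM in sh-ctrl and 32.11, 33.89 and 37.93 CPM in sh-Pfkp. Its groups did not overlap and it fell by 0.90 on the log2 scale (SE 0.0491). Aldoc, an aldolase, fell by 1.24 (SE 0.092). The phosphoglycerate kinase gene Pgk1 fell by 0.61 (SE 0.0174), the lactate dehydrogenase gene Ldha by 0.44 (SE 0.0143) and the pyruvate kinase gene Pkm by 0.33 (SE 0.0131). Eno1b, an enolase gene whose reads may be shared with its near-identical copy Eno1, fell by 0.48 (SE 0.0152). The mildest of these was Gapdh, the most abundant enzyme gene per length (3852 FPKM in sh-ctrl). Its levels were 5385, 5290 and 5347 CPM against 4533, 4435 and 4537 CPM, a change of -0.25 (SE 0.0126) with no overlap. The enolase gene Eno3, chosen after its value was seen, was the enzyme that rose (0.40, SE 0.133), and lost its call without sh-Pfkp replicate 3 (edgeR adjusted p = 0.0713) or sh-ctrl replicate 2 (0.0815).

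Glycogen and hexosamine genes followed, while the pentose phosphate pathway did not move one way. Of 15 glycogen and hexosamine genes 10 fell and 2 rose (median -0.24). The phosphoglucomutase gene Pgm1, which links glucose 6-phosphate to glycogen, had 87.25, 88.23 and 85.32 CPM in sh-ctrl and 40.80, 38.82 and 44.16 CPM in sh-Pfkp. The knockdown values lay well below every control value, with a change of -1.08 (SE 0.0443, edgeR adjusted p = 1.53e-19). Glycogen synthase Gys1 fell by 0.89 (SE 0.0474), the branching enzyme gene Gbe1 by 0.60 (SE 0.0701), and Gfpt2, which opens the hexosamine route, by 0.38 (SE 0.0273). Of 12 pentose phosphate genes 3 rose and 3 fell (median 0.02). The epimerase gene Rpe rose by 0.43 (SE 0.0427) and the transaldolase gene Taldo1 fell by 0.41 (SE 0.0384). In the deposited pathway labels the same direction appeared outside these lists. Of 20 genes labelled starch and sucrose metabolism 12 fell and 3 rose, and of 49 labelled glycerolipid metabolism 28 fell and 9 rose.

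Mitochondrial energy genes split by genome. Of 13 transcripts encoded by mitochondrial DNA 12 rose and 0 fell (median 0.46), and their share of all counts went from 5.25% ± 0.093 to 6.78% ± 0.11 (SD, n = 3 each). The cytochrome oxidase gene mt-Co1 had 16750, 17060 and 16580 CPM in sh-ctrl and 23310, 23050 and 22950 CPM in sh-Pfkp. All sh-Pfkp libraries were higher, at 0.46 (SE 0.0112, edgeR adjusted p = 1.22e-25), and mt-Nd5, a complex I subunit gene, rose by 0.67 (SE 0.031). The exception was mt-Atp8 (-0.04, not called), named after its value was seen. Of 75 nuclear genes for respiratory chain subunits 13 rose and 9 fell (median 0.04), and with library size scaling alone 8 rose and 15 fell. Atp5b, the most abundant of them per length (660.3 FPKM), stood at 1240, 1249 and 1265 CPM in sh-ctrl and 1256, 1268 and 1261 CPM in sh-Pfkp. These groups overlapped and the change was 0.01 (SE 0.0161, edgeR adjusted p = 0.541). Of 28 genes of the TCA cycle and its isocitrate dehydrogenases 7 rose and 9 fell (median 0.00), all by less than 1.5-fold. Idh1, the cytosolic isocitrate dehydrogenase, rose from 74.90, 72.12 and 78.88 CPM to 96.80, 99.53 and 99.60 CPM (0.39, SE 0.0388). Between the pathways, Pdk2, a kinase that inhibits pyruvate dehydrogenase, fell by 0.82 (SE 0.133) and the opposing phosphatase gene Pdp1 by 0.59 (SE 0.0916).

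Mitochondrial transcripts, cytosolic ribosomal protein transcripts and immediate early genes are read as signs of RNA quality or handling. Ribosomal protein transcripts held 4.61% ± 0.069 of counts in sh-ctrl and 4.16% ± 0.085 in sh-Pfkp (SD, n = 3 each). Of 83 ribosomal protein genes 49 fell and 8 rose (median -0.09), and the share of the most abundant one, Rps2, went down with a change of -0.18 (SE 0.0137). These shares moved with the knockdown in all 6 libraries, and their part in the other results was not tested.

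Lipid synthesis genes were lower and lipid oxidation genes went both ways. Of 23 genes of cholesterol synthesis and uptake 17 fell and 1 rose (median -0.34), and of 17 genes of fatty acid synthesis 12 fell and 1 rose (median -0.33). Insig1, a sterol sensor whose own transcript follows sterol demand, had 76.10, 72.37 and 78.55 CPM in sh-ctrl and 47.43, 48.87 and 49.28 CPM in sh-Pfkp. Its groups lay apart, at -0.64 (SE 0.0415, edgeR adjusted p = 1.44e-14). The synthesis enzymes Dhcr7 and Msmo1 fell by 0.62 (SE 0.0481) and 0.59 (SE 0.0481), and Hmgcs1, at the start of the pathway, by 0.27 (SE 0.0257). The desaturase gene Scd2 was the most abundant fatty acid gene per length and fell furthest in its list. It had 841.1, 854.7 and 859.8 CPM in sh-ctrl and 476.9, 467.8 and 474.1 CPM in sh-Pfkp, a change of -0.85 (SE 0.0185). Scd1 fell by 0.71 (SE 0.03) and Acss2, which makes acetyl-CoA from acetate, by 0.55 (SE 0.0982). The fatty acid synthase gene Fasn, named after its value was seen, was the member of its list that rose (0.17, SE 0.0184). Of 18 genes of fatty acid oxidation 6 rose and 5 fell (median 0.03), with the carnitine carrier gene Slc25a20 at 0.72 (SE 0.0628) and the dehydrogenase gene Acadl at -0.56 (SE 0.0981).

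Serine and amino acid genes were lower in part. Of 20 serine and one-carbon enzyme genes 9 fell and 3 rose (median -0.12). Phgdh, which draws serine from a glycolytic intermediate, had 150.4, 147.8 and 144.0 CPM in sh-ctrl and 86.12, 91.27 and 87.97 CPM in sh-Pfkp. All knockdown libraries were low (-0.74, SE 0.0329), whereas Mat2a, which makes the methyl donor S-adenosylmethionine, rose by 0.61 (SE 0.0207) and the thymidylate synthase gene Tyms by 0.47 (SE 0.0398). Of 18 amino acid transporter genes 8 fell and 5 rose (median -0.06). The glutamine transporter gene Slc38a2 had 218.0, 217.8 and 214.4 CPM in sh-ctrl and 381.5, 382.2 and 382.6 CPM in sh-Pfkp. It rose by 0.82 (SE 0.0234), while the transporter genes Slc1a5 (-0.71, SE 0.0499) and Slc6a9 (-0.72, SE 0.101) fell. Nucleotide synthesis genes were even, 6 higher and 6 lower of 21, with Umps, of pyrimidine synthesis, at 0.51 (SE 0.0455) and the salvage gene Hprt at -0.34 (SE 0.027).

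**Figure D3:**
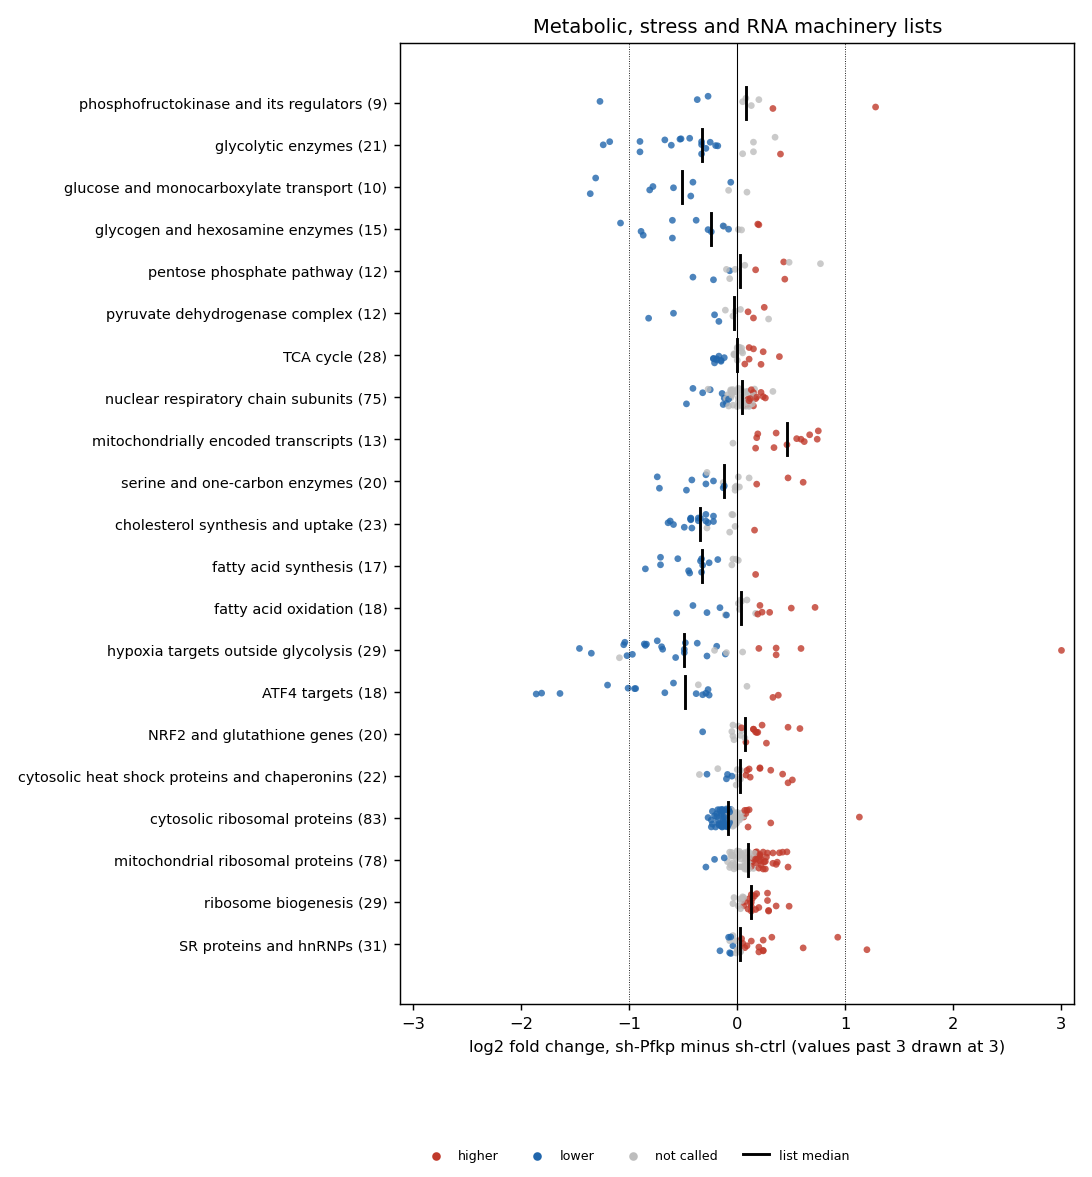
log2 fold change (sh-Pfkp minus sh-ctrl) of each tested member of 21 lists, with the number tested in parentheses, red for called higher, blue for called lower, grey for not called and a black bar at the list median. Glycolysis, glucose transport, sterol and fatty acid synthesis, hypoxia and ATF4 lists lie to the left, and mitochondrially encoded transcripts to the right; values past 3 are drawn at 3.

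Hypoxia targets, which HIF factors switch on when oxygen is short, fell with glycolysis. Of 29 genes in the hypoxia list outside glycolysis, which also holds HIF factor genes and their regulators, 20 fell and 5 rose (median -0.49). The prolyl hydroxylase gene Egln3, an oxygen sensor, had 98.70, 94.11 and 96.72 CPM in sh-ctrl and 35.27, 33.64 and 36.42 CPM in sh-Pfkp. Bnip3, a mitophagy receptor gene, had 255.4, 248.3 and 241.0 CPM against 92.64, 101.8 and 96.98 CPM. In both genes the groups lay far apart, at -1.46 (SE 0.0416) and -1.35 (SE 0.031). The vessel growth factor gene Vegfa fell from 92.58, 85.99 and 90.28 CPM to 44.37, 41.07 and 44.97 CPM (-1.05, SE 0.0426). Of the HIF factor genes in the list Hif1a (0.20, SE 0.0236) and Epas1 (0.59, SE 0.0358) rose, while Hif3a (-1.04, SE 0.0806) and the partner gene Arnt (-0.11, SE 0.0258) fell. Also higher were Kdm3a and Egln2 (0.36 each) and Lox, with 3 counts over the controls and 57 over the knockdown libraries, a ratio of 17.6 (exact 95% counting interval 5.71 to 87.6). These were named after their values were seen.

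ATF4, the transcription factor of the integrated stress response, raises genes of amino acid supply and stress. Of 18 genes in the list of its targets, which also holds Atf4 itself, 14 fell and 2 rose (median -0.48). Chac1, which degrades glutathione, had 19.11, 22.38 and 20.24 CPM in sh-ctrl and 6.738, 6.461 and 6.516 CPM in sh-Pfkp. It fell by 1.64 (SE 0.0933, edgeR adjusted p = 6.43e-16) with no overlap between groups. Vldlr, a lipoprotein receptor gene, fell by 1.20 (SE 0.142) and Stc2, a secreted stress glycoprotein gene, by 1.01 (SE 0.0933). Atf4 itself had 265.4, 270.9 and 264.0 CPM against 213.7, 214.3 and 212.5 CPM (-0.32, SE 0.0268). Sesn2 (0.38) and Atf5 (0.33) rose, the latter with no call in FPKM (limma-trend adjusted p = 0.0986), and were named after their values were seen. The chaperones of the endoplasmic reticulum moved less, with 10 of 23 lower and 4 higher (median -0.07). Sdf2l1 of that list fell by 0.57 (SE 0.109) and the chaperone gene Hsp90b1 by 0.13 (SE 0.0165).

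Promoters of these lists were examined for the letters that HIF, ATF4 and the sterol factor SREBP are known to bind, since members of each list moved together. RefSeq promoters (build GRCm38.p6, the 250 bases before each start) were matched by symbol for 23 of 29 hypoxia genes, 16 of 18 ATF4 targets and 16 of 23 cholesterol genes tested. ACGTG or GCGTG, the core of the hypoxia response element, occurred on either strand in 27 of 33 promoters of the hypoxia list (81.8%), 17 of 26 of the glycolytic enzymes (65.4%) and 38.6% of all 32851 promoters. TGATGNAAN, the ATF4 and CEBP element, occurred in 7 of 18 promoters of ATF4 targets (38.9%) and 3.44% of all promoters. Those 7 belonged to genes that fell, and the element was in 0 of 18 promoters of the serine list. It was in 0 of 3 promoters of members that rose, but these belong to only 2 genes, too few for a contrast. The hypoxia letters were in 16 of 19 promoters of hypoxia genes that fell (84.2%) and 4 of 6 of those that rose (66.7%). TCACNCCAC, a sterol element, occurred in 1 of 19 promoters of the cholesterol list (5.26%) and 1.05% of all promoters, and TGACNNNGC, the core of the NRF2 element, in 5 of 22 of the NRF2 list (22.7%), 2 of 14 of its members that rose (14.3%) and 10.2% of all. A match is a description of the letters and no evidence of binding. The hypoxia and ATF4 lists were drawn up mostly as targets of HIF and ATF4. A share above that of all promoters is therefore no test of either factor. Promoters with a match are shown for 4 fallen glucose and hypoxia genes, 2 ATF4 targets and 1 cholesterol gene, 5′ to 3′ on the strand of the gene, with matches in capitals (overlapping matches run together).
Bnip3 (chr7:138909507-138909756, minus strand): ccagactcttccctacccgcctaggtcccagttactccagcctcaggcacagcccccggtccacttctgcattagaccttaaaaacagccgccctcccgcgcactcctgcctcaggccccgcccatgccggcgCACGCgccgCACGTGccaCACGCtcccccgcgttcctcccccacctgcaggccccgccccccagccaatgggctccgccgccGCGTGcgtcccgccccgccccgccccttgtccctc
Egln3 (chr12:54203875-54204124, minus strand): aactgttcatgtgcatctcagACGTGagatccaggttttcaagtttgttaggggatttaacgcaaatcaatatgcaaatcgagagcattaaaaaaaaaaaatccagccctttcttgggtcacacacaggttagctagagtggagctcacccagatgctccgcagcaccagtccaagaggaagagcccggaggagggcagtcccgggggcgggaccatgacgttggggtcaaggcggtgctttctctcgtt
Slc16a3 (chr11:120948817-120949066, plus strand): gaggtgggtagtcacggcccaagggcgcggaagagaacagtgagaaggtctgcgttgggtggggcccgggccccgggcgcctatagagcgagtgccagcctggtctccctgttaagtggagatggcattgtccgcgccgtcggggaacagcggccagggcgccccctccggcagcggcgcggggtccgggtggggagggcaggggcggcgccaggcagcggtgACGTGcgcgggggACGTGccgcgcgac
Slc2a1 (chr4:119108495-119108744, plus strand): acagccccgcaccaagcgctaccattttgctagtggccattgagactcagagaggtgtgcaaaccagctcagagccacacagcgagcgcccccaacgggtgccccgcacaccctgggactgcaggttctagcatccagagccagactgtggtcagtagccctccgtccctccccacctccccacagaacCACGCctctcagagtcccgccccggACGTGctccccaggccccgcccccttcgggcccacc
Chac1 (chr2:119350992-119351241, plus strand): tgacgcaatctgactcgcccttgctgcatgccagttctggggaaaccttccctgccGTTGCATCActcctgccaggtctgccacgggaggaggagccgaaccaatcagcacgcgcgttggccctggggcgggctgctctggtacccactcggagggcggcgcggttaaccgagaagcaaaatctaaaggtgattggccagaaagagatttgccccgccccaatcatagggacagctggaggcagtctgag
Vldlr (chr19:27216770-27217019, plus strand): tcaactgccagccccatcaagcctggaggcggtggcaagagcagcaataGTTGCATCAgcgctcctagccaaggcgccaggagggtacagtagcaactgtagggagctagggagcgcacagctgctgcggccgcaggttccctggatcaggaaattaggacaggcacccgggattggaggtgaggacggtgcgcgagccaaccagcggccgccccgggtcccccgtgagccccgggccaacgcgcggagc
Hmgcs1 (chr13:119690101-119690350, plus strand): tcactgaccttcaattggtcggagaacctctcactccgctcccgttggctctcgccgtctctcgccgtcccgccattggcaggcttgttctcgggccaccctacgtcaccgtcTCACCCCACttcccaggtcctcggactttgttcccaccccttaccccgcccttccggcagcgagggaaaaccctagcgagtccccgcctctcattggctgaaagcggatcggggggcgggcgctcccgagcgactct

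Other stress programs did not fall with them. Of 20 NRF2 and glutathione genes, which detoxify oxidants, 11 rose and 1 fell (median 0.08). Nqo1, a quinone reductase gene, had 10.41, 12.79 and 12.00 CPM in sh-ctrl and 16.27, 18.72 and 17.34 CPM in sh-Pfkp (0.58, SE 0.0878), without overlap. The glutathione peroxidase gene Gpx1 rose by 0.47 (SE 0.0224) and the heme oxygenase gene Hmox1 fell by 0.32 (SE 0.0309). Of 22 cytosolic heat shock and chaperonin genes 10 rose and 4 fell (median 0.03). The 45.5% higher was near the 43.8% of all genes of 100 to 1000 CPM. Higher in the list were the co-chaperone gene Dnaja1 (0.51, SE 0.0225), Hspb1 (0.47, SE 0.0228) and Hsph1 (0.42, SE 0.0219). Hsp90ab1, the most abundant of the list per length, was not called (0.00, edgeR adjusted p = 0.957). With library size scaling alone Hsp90ab1 was lower (-0.05, edgeR adjusted p = 0.00076). Of 17 genes of the p53 response 11 rose (64.7%) and 4 fell (23.5%), with a median of 0.18. Among all genes of 100 to 1000 CPM 43.8% were higher and 26.7% lower, and among those of at least 10 CPM 35.4% and 28.0%. The p53 inhibitor gene Mdm2 rose by 0.51 (SE 0.0301), while the cell death gene Pmaip1 fell by 0.63 (SE 0.0501). Of 29 autophagy and lysosome genes 13 rose (44.8%) and 7 fell (24.1%), with a median of 0.05. Those shares were near the ones of all genes of 100 to 1000 CPM. The lysosomal hexosaminidase gene Hexa had 11.96, 12.34 and 10.64 CPM in sh-ctrl and 23.27, 20.77 and 20.25 CPM in sh-Pfkp (0.88, SE 0.0843), and the autophagy gene Wipi1 fell by 1.41 (SE 0.136).

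Genes for making and processing RNA were more often higher than lower. Of 29 ribosome biogenesis genes 21 rose and 0 fell (median 0.13), and of 78 mitochondrial ribosomal protein genes 33 rose and 3 fell (median 0.10). Polr1b, a subunit of RNA polymerase I, had 118.6, 117.9 and 116.2 CPM in sh-ctrl and 165.0, 162.9 and 165.6 CPM in sh-Pfkp (0.48, SE 0.0293). The preribosome factor gene Rrp12 rose by 0.36 (SE 0.0284) and the mitochondrial ribosome gene Mrps7 by 0.47 (SE 0.0517). With scaling by library size alone 16 of the biogenesis genes rose and 2 fell. Of 72 genes that the deposited pathway labels assign to ribosome biogenesis 37 rose and 8 fell, and of 29 for RNA polymerase 14 rose and 3 fell.

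Splicing regulators changed unevenly. Of 31 SR protein and hnRNP genes 14 rose and 6 fell (median 0.03), and with scaling by library size alone 10 rose and 8 fell. In the main fit 45.2% were higher and 19.4% lower, against 43.8% and 26.7% of all genes of 100 to 1000 CPM. The share of higher calls was thus near that of abundant genes in general. Srsf7, an SR splicing factor gene, had 119.6, 117.1 and 119.6 CPM in sh-ctrl and 260.4, 282.4 and 274.7 CPM in sh-Pfkp. All knockdown libraries stood at more than 2-fold the control level, with a change of 1.20 (SE 0.0294, edgeR adjusted p = 1.43e-25). Srsf3 had 294.5, 308.3 and 293.5 CPM against 560.5, 580.7 and 570.0 CPM (0.93, SE 0.0217), and Hnrnph1 rose by 0.61 (SE 0.0219). A list of RBM, CLK, LUC7L, SREK and TRA2 genes, added after the values were seen, had 33 of 53 higher and 3 lower (median 0.21). Within it were the splicing activator gene Tra2a (0.97, SE 0.0329) and Clk1, a kinase of SR proteins (0.72, SE 0.0371), both named after their values were seen. Deposited labels for the spliceosome gave 57 of 137 higher (41.6%) and 24 lower (17.5%).

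Zinc finger genes were more often higher than lower. A list of all Zfp genes, also added after the values were seen, had 191 of 372 higher and 39 lower (median 0.19). Among genes of at least 10 CPM 63.1% of 241 Zfp genes were higher and 9.54% lower, against 35.4% and 28.0% of 8589 genes in all. Together they held 1.53% ± 0.0028 of counts in sh-ctrl and 1.78% ± 0.0015 in sh-Pfkp (SD, n = 3 each). The largest rise of these among genes of at least 50 CPM was that of Zfp997. It had 50.06, 51.47 and 50.95 CPM in sh-ctrl and 110.7, 108.0 and 108.7 CPM in sh-Pfkp (1.10, SE 0.0394). Many Zfp genes are close copies in clusters, and reads could be shared between them. Many carry a KRAB domain, which silences repeats through Setdb1 and its partners. Of 25 genes of that silencing machinery, a list added after the values were seen, 16 rose and 5 fell (median 0.13), with the methyltransferase gene Setdb1 at 0.41 (SE 0.0243), its cofactor gene Atf7ip at 0.77 (SE 0.0256), Tasor of the silencing complex HUSH at 0.75 (SE 0.0308) and the remodeller gene Atrx at 0.47 (SE 0.0189).

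Most pluripotency genes rose, by small amounts, while the largest change among core genes was the fall of Tdgf1, a NODAL co-receptor gene (-0.84, SE 0.0177). Of 16 core pluripotency genes 12 rose and 3 fell (median 0.18), and of 20 naive genes 13 rose and 5 fell (median 0.24). Pou5f1, the most abundant core factor gene per length, had 896.4, 881.1 and 898.1 CPM in sh-ctrl and 836.1, 843.9 and 849.8 CPM in sh-Pfkp. The groups lay apart by little, at -0.08 (SE 0.0161), while Sox2 (0.23) and Nanog (0.18), named after their values were seen, rose. Sall4 had 201.5, 207.7 and 206.3 CPM against 293.0, 278.5 and 279.8 CPM (0.47, SE 0.025), and Rif1, of replication timing and telomeres, rose by 0.45 (SE 0.0183). Among naive genes the factor gene Klf2 had 67.86, 64.57 and 66.72 CPM in sh-ctrl and 108.0, 107.4 and 114.1 CPM in sh-Pfkp (0.72, SE 0.0366). Its groups were far apart, and the threonine dehydrogenase gene Tdh, a metabolic mark of mouse stem cells, rose by 0.56 (SE 0.0213). Dppa5a went the other way, from 645.5, 612.3 and 628.2 CPM to 458.1, 494.3 and 456.9 CPM (-0.42, SE 0.0234).

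Of 17 formative and primed genes 11 rose and 5 fell (median 0.23). The pioneer factor gene Foxd3 rose from 12.13, 11.12 and 13.31 CPM to 23.11, 24.00 and 23.21 CPM (0.94, SE 0.0767), and the WNT effector gene Lef1 by 0.66 (SE 0.0538). The signal gene Fgf15 fell from 30.84, 32.67 and 30.55 CPM to 13.16, 14.56 and 14.49 CPM (-1.15, SE 0.069). Otx2, named after its values were seen, had 1.774, 2.238 and 1.582 CPM in sh-ctrl and 7.843, 6.666 and 7.680 CPM in sh-Pfkp (1.99, SE 0.17). In each of these 3 genes no knockdown library reached into the control range. Of 12 genes for adding or removing DNA methylation 8 rose and 3 fell, with the methyltransferase gene Dnmt3a at 0.28 (SE 0.0318) and the remodeller gene Hells at 0.25 (SE 0.0184). Of 24 Polycomb genes 11 rose (45.8%) and 6 fell (25.0%), near the 43.8% and 26.7% of all genes of 100 to 1000 CPM. For all genes of at least 10 CPM these shares were 35.4% and 28.0%. Bmi1, of the ring finger complex, had 15.45, 13.94 and 12.55 CPM against 25.16, 25.64 and 27.58 CPM (0.90, SE 0.0752).

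Transcripts of the 2-cell-like state, a rare condition in which stem cells express genes of the cleaving embryo, were higher. Of 15 listed genes 10 were under 1 CPM in sh-ctrl and 4 in sh-Pfkp, and 12 passed the filter on low counts, Duxf3, Tcstv1 and Tcstv3 being left out. A gene that passes only through the group where it is high had to differ, so that the 12 higher calls are a description of those that passed. The summed level of the list went from 16.71, 15.28 and 18.44 CPM to 91.49, 91.58 and 88.43 CPM. Zscan4d had 2.003, 1.854 and 2.400 CPM in sh-ctrl and 12.11, 12.36 and 12.80 CPM in sh-Pfkp (2.56, SE 0.136), and Zscan4f rose by 2.63 (SE 0.101). Copies of Zscan4 are near-identical, so reads may be split between them and the members are not independent. Of 17 Eif1ad copies listed 9 passed the same filter and 8 of these were higher (Eif1ad3 at 2.46, SE 0.111), and they supplied most of the large rises in the list of translation initiation factors. In that list 24 of 63 rose and 17 fell, which turned to 20 and 26 with scaling by library size alone, and Eif4a1, the most abundant per length, fell by 0.05 (SE 0.0136). Of 47 listed Pramel genes, another multicopy family, 45 were under 1 CPM in sh-ctrl and 12 passed the filter, of which 10 were higher and 0 lower. The Eif1ad and Pramel lists were added after the values were seen.

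Signalling lists each held genes that rose and genes that fell. In the NODAL pathway, which patterns the epiblast, 10 of 18 genes fell and 5 rose (median -0.25). The ligand gene Nodal, named after its value was seen, did not pass the test (-0.02, edgeR adjusted p = 0.709). Its co-receptor gene Tdgf1 had 981.7, 985.6 and 986.0 CPM in sh-ctrl and 542.2, 562.7 and 549.3 CPM in sh-Pfkp. The feedback inhibitor gene Lefty2 had 110.8, 115.8 and 113.1 CPM against 42.90, 42.51 and 42.99 CPM. Both lay far below control, at -0.84 (SE 0.0177) and -1.40 (SE 0.0393), and Lefty1 fell by 1.35 (SE 0.0609). In the BMP pathway 4 of 15 rose and 5 fell. The receptor gene Acvrl1 fell from 9.269, 10.10 and 9.656 CPM to 2.158, 1.641 and 2.327 CPM (-2.25, SE 0.146), the target Id1 fell by 0.22 (SE 0.0546) and the target Id3 rose by 0.70 (SE 0.095).

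In the FGF and ERK pathway 13 of 19 genes rose and 4 fell (median 0.13). The receptor gene Fgfr2 had 3.376, 3.069 and 2.891 CPM in sh-ctrl and 9.475, 6.666 and 9.309 CPM in sh-Pfkp (1.44, SE 0.15). The feedback gene Spry2 rose by 0.61 (SE 0.0462) and the kinase gene Mapk3 fell by 0.54 (SE 0.0506). Of 22 WNT genes 8 rose and 3 fell (median -0.06), with the receptor gene Fzd10 at 0.81 (SE 0.101) and the feedback gene Notum at 0.62 (SE 0.0745), while Ctnnb1, for beta-catenin, was not called (-0.01, edgeR adjusted p = 0.515). With library size scaling alone Ctnnb1 was lower (-0.06, edgeR adjusted p = 0.00372). Of 16 genes of the Hippo pathway and its YAP targets 10 rose and 4 fell (median 0.21), where Amotl2 rose by 0.93 (SE 0.0575) and the co-activator gene Wwtr1 fell by 0.72 (SE 0.0536). Of 13 genes around LIF, STAT3 and Myc 5 rose and 5 fell. Mycn had 86.11, 86.69 and 81.83 CPM against 156.5, 163.1 and 160.3 CPM (0.92, SE 0.0321), and the STAT3 target Pim1 fell by 0.64 (SE 0.0436). The cytokine inhibitor gene Socs2, outside that list, rose by 1.05 (SE 0.0372). Of 15 Notch genes 4 rose and 6 fell, with the ligand genes Jag1 at 0.66 (SE 0.0712) and Jag2 at -0.63 (SE 0.0567).

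Immediate early genes, which answer growth signals and handling within minutes, were lower as a list. Of 15 tested 13 fell and 1 rose (median -0.50). Egr1 had 68.09, 66.11 and 67.48 CPM in sh-ctrl and 6.685, 6.512 and 6.865 CPM in sh-Pfkp, and Fos had 10.87, 8.631 and 8.346 CPM against 3.000, 2.102 and 2.502 CPM. Neither gene overlapped between groups, at -3.33 (SE 0.064) and -1.87 (SE 0.158). Klf6 was the member that rose (0.69, SE 0.0572). Ier2, the most abundant member per length, changed by -0.16. The part of harvest in these values was not tested.

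Proliferation genes shifted little. Of 20 mitosis genes 9 fell and 1 rose (median -0.06), led by Mki67 with 646.5, 664.7 and 660.1 CPM in sh-ctrl and 559.9, 536.8 and 543.7 CPM in sh-Pfkp (-0.27, SE 0.0193). Of 25 replication genes 7 rose and 6 fell, and Pcna, the sliding clamp gene, was not called (0.00, edgeR adjusted p = 0.954). Of 21 genes of the G1 phase 7 rose and 8 fell, with the cyclin gene Ccnd2 and the factor gene E2f1 at -0.42 each (SE 0.055 and 0.0419).

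Genes of epithelial junctions were lower and those of membrane channels too. Of 25 epithelial genes 21 fell and 3 rose (median -0.52). The keratin gene Krt8 had 9.498, 9.015 and 10.26 CPM in sh-ctrl and 4.211, 3.487 and 3.433 CPM in sh-Pfkp (-1.37, SE 0.131), and the claudin gene Cldn7 had 7.896, 8.567 and 11.13 CPM against 3.053, 2.820 and 3.491 CPM (-1.57, SE 0.155). In both no knockdown value reached the control range, while the catenin gene Ctnna1, the most abundant member per length, fell by 0.11 (SE 0.0188). Of 12 mesenchymal transition genes 4 rose and 3 fell, among them the factor gene Zeb1 at 0.79 (SE 0.073), the filament gene Vim at 0.32 (SE 0.025) and the ligand gene Tgfb1 at -0.71 (SE 0.14). Of 15 basement membrane genes 5 rose and 6 fell, where Lamb1 fell by 0.54 (SE 0.0304), Lamc1 rose by 0.17 (SE 0.0182) and Col4a1 rose by 0.33 (SE 0.0494).

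Of 34 potassium channel genes tested 19 fell and 2 rose (median -0.66), and of 26 calcium and sodium channel genes 15 fell and 3 rose (median -0.58). Few were abundant, since 5 of 94 potassium channel genes listed and 8 of 44 calcium and sodium channel genes reached 10 CPM in sh-ctrl, and lower calls lead at low levels in general (32.3% of all genes of 1 to 10 CPM). The T-type calcium channel gene Cacna1h had 17.97, 17.97 and 19.97 CPM in sh-ctrl and 2.000, 2.564 and 2.793 CPM in sh-Pfkp (-2.93, SE 0.123), and Kcnh2, for a cardiac potassium channel, fell by 0.73 (SE 0.0746). In both, all knockdown values lay under all control values.

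**Figure D4:**
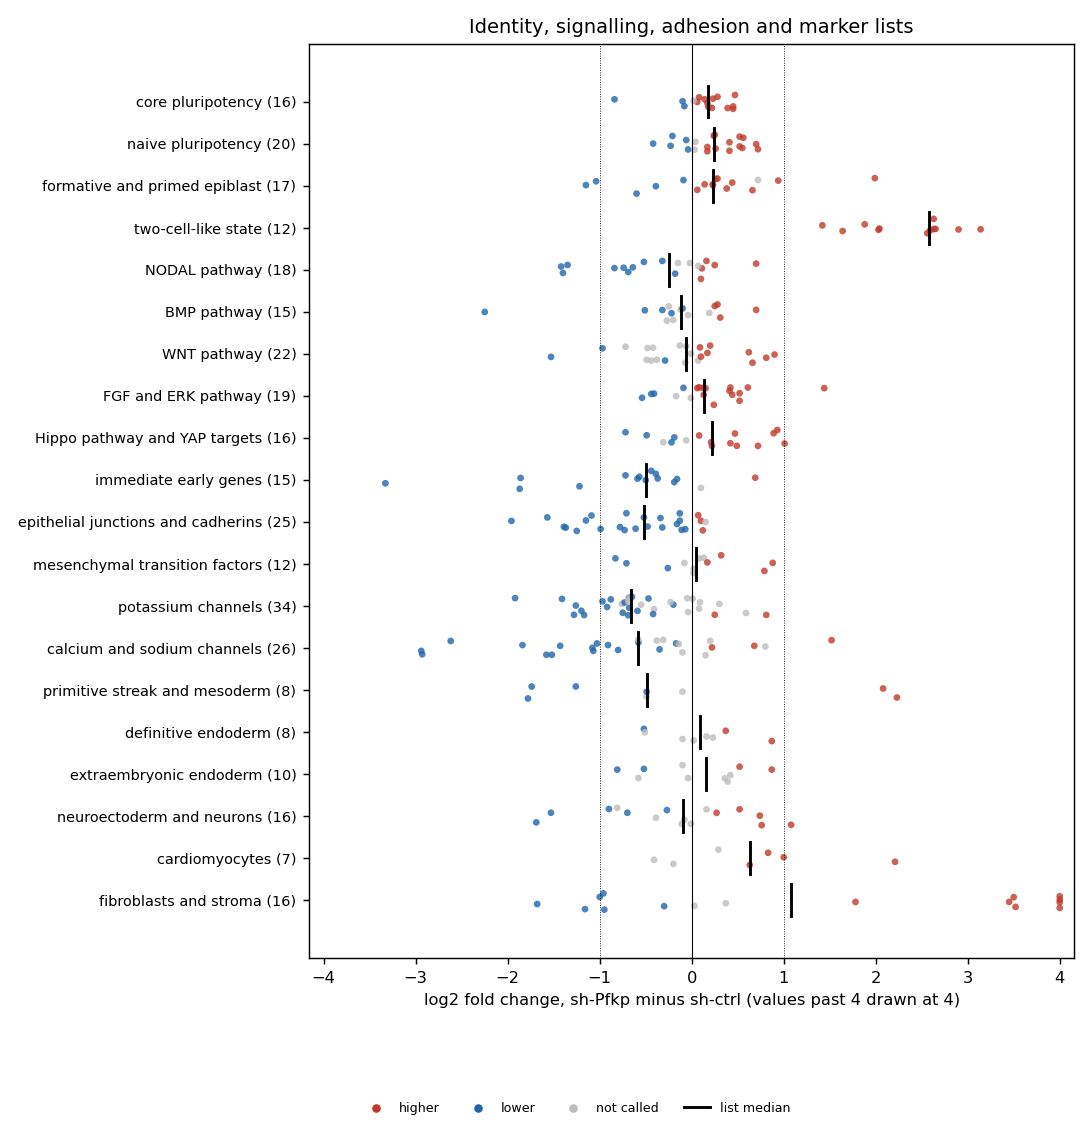
log2 fold change (sh-Pfkp minus sh-ctrl) of each tested member of 20 lists of identity, signalling, adhesion and marker genes, with the number tested in parentheses, red for called higher, blue for called lower, grey for not called and a black bar at the list median; values past 4 are drawn at 4. The 2-cell-like list lies to the right, the epithelial, channel and immediate early lists to the left, and most pluripotency genes lie close to 0.

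Markers of differentiated cells changed gene by gene. Neuroectoderm and neuron markers summed to 487.6, 488.0 and 492.7 CPM in sh-ctrl and 595.2, 596.1 and 578.4 CPM in sh-Pfkp, yet 5 of 16 tested rose and 5 fell (median -0.10). Pax6, a neural factor gene, had 7.953, 6.841 and 7.201 CPM against 15.84, 15.38 and 15.48 CPM (1.08, SE 0.0983), and the stathmin gene Stmn2 rose by 0.52 (SE 0.0218). Stmn2 alone gained 111.7 CPM, more than the whole gain of the summed list, whose mean went from 489.4 to 589.9 CPM. Elavl3, which encodes an RNA-binding protein of neurons, fell from 42.28, 45.84 and 44.68 CPM to 15.95, 15.38 and 14.49 CPM (-1.53, SE 0.0639), and the microtubule gene Map2 by 0.90 (SE 0.0953). Cardiomyocyte markers summed to 114.7, 122.8 and 118.1 CPM in sh-ctrl and 211.9, 211.7 and 214.2 CPM in sh-Pfkp, of which the long titin gene Ttn gave most. Of 7 tested 4 rose and 0 fell, among them Ryr2, for a calcium release channel, with 8.239, 7.161 and 7.474 CPM against 15.42, 14.67 and 15.65 CPM (1.00, SE 0.0989). Of 8 streak markers 2 rose and 4 fell, with Eomes at -0.49 (SE 0.0901). Extraembryonic endoderm markers had 2 of 10 higher and 2 lower, with the endocytic receptor gene Lrp2 at 0.52 (SE 0.0415).

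Fibroblast and stromal markers divided within the list. Of 16 tested 8 rose and 6 fell, and 4 of 24 listed had 0 counts in all sh-ctrl libraries against 0 in sh-Pfkp, so that some passed the filter only through the group where they are high. Their summed level lay between 58.82 and 63.44 CPM in sh-ctrl and between 76.91 and 78.37 CPM in sh-Pfkp. The genes that rose most were near 0 in control and were named after their values were seen. Vcam1, for an adhesion molecule, had 0, 1 and 0 counts in sh-ctrl and 135, 103 and 121 counts in sh-Pfkp, a ratio of 332 (exact 95% counting interval 59.2 to 13100). The fibrillar collagen genes Col1a2 and Col3a1 had 1 and 2 counts over the controls and 283 and 292 over the knockdown libraries, ratios of 261 (46.5 to 10400) and 135 (37.0 to 1120). Dcn, for a matrix proteoglycan, had 0 counts in sh-ctrl and 22, 14 and 16 in sh-Pfkp. Other markers went down, as the growth factor receptor gene Pdgfrb fell from 7.953, 8.695 and 8.183 CPM to 2.316, 2.666 and 2.734 CPM (-1.68, SE 0.147) and Timp3, a protease inhibitor gene, by 0.95 (SE 0.125). Inflammatory genes, also chosen after their values were seen, were near absent in control as well. Cxcl10 had 2 counts against 96, a ratio of 44.3 (11.9 to 371), and Ccl2, Gbp2 and Acod1 had 0 counts against 54, 48 and 45, at least 16.6-fold, 14.8-fold and 13.9-fold higher against a floor of 3 counts over the group. Of 12 macrophage and leukocyte markers listed 9 were too low to test, and 8 had 0 counts in all sh-ctrl libraries against 1 in sh-Pfkp. Their summed level lay between 10.2 and 11.61 CPM in sh-ctrl and between 10.31 and 11.9 CPM in sh-Pfkp. Cd68, a lysosomal protein gene of macrophages and the most abundant, had 8.640, 7.288 and 8.074 CPM against 8.159, 6.717 and 7.912 CPM, and 0 of 3 tested rose. The part of stromal and macrophage cells in the other results was not tested.

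Several of the largest changes among well measured genes belonged to none of the programs above. Tmem72, a membrane protein gene, had 594.8, 601.2 and 580.5 CPM in sh-ctrl and 1699, 1697 and 1706 CPM in sh-Pfkp (1.52, SE 0.017, edgeR adjusted p = 4.6e-35). It was the only gene with a mean level over 1000 CPM that was called higher at 2-fold, of 82 such genes. The lipid carrier gene Fabp3 rose from 33.81, 30.69 and 34.75 CPM to 75.38, 81.43 and 79.76 CPM (1.25, SE 0.0517) and the aquaglyceroporin gene Aqp3 from 37.13, 37.34 and 38.51 CPM to 91.01, 87.38 and 83.31 CPM (1.21, SE 0.0487). Each of these groups stood clear of the other. Dusp27 rose by 1.29 (SE 0.0482) and the neurofilament-like gene Ina by 1.02 (SE 0.0487), while Spats2 fell from 75.93, 77.04 and 79.32 CPM to 36.27, 33.48 and 36.89 CPM (-1.13, SE 0.0441). The targeted gene of the other hairpin, Trim71, had 273.0, 263.7 and 269.7 CPM in sh-ctrl and 349.6, 359.9 and 347.2 CPM in sh-Pfkp (0.39, SE 0.0238).

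**Figure D5:**
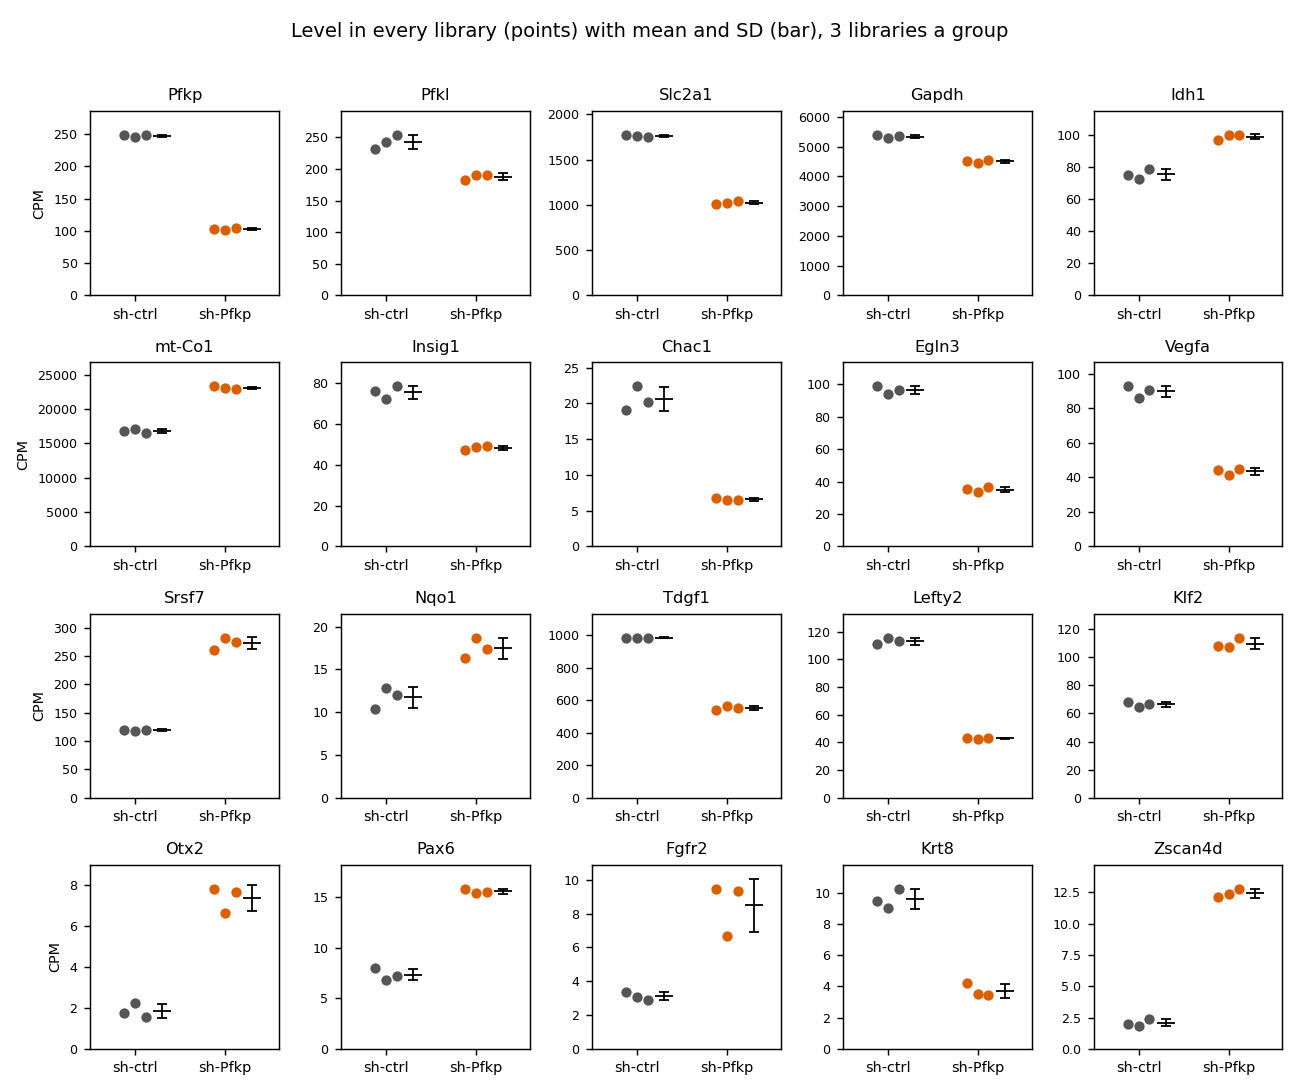
Level in CPM of 20 genes in each of the 3 sh-ctrl (grey) and 3 sh-Pfkp (orange) libraries, with the mean and SD as a bar beside the points and every axis starting at 0. In all 20 genes the groups do not overlap, from the small step of Gapdh to the fall of Egln3 and the rise of Zscan4d.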

How the data were processed

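RNA of 9 mouse embryoid body libraries was sequenced, and the 6 of sh-ctrl and sh-Pfkp are described. Per the submitters' processing notes the reads passed through fastp (version 0.18.0) and Bowtie2 (version 2.2.8), and HISAT2, RSEM and StringTie (version 1.3.1) are named as well. Not given in the sources used here are genome build, annotation, strand and how the authors computed p-values. The deposited counts are whole numbers per gene made by the authors, which may be rounded RSEM estimates. The deposited FPKM values, relative to length and library size, were computed by the authors, and their table of comparisons gives log2 fold changes and p-values (FDR), per the file headers.

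Genes were filtered with filterByExpr by group, scaled by TMM and tested with edgeR 4.0.16 (quasi-likelihood, R 4.3.3) in 1 fit of 9 libraries, with Benjamini-Hochberg adjustment over the 13158 genes tested and a threshold of 0.05. CPM use TMM-scaled library sizes. Log2 fold changes are sh-Pfkp minus sh-ctrl. Standard errors (SE) were worked back from them, as the absolute log2 fold change over the square root of the F statistic of the test. The fit was run on counts simulated from its own model, with a common spread for all genes and changed genes over 1 CPM. There it recovered 82% of 50 genes changed by 1.25-fold and 98% of 50 changed by 2-fold, and called 14 of 12718 unchanged genes. This checks the code and does not measure the error rates in the real libraries. Replicate libraries differed by more than counting noise, with a median chi-square per gene of 0.661 to 0.769 against 0.455 for noise alone. The spread beyond counting was still small, at a common biological coefficient of variation of 0.0213 in the fit. With so small a spread among libraries, small changes pass the threshold and p-values become very low. Total counts of 15495194 to 19981983 limit the precision of low genes, and counting intervals are exact and cover counting error only.

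The 66 gene lists, the members and the tests were chosen with earlier results of these data known, and 9 more lists were added after the values were seen. Genes were taken for naming by a rule. It covers Pfkp and Trim71, from each list up to 3 called members that changed most among those of at least 5 CPM whose groups do not overlap, and the member of each list with the highest FPKM. It also covers the 8 largest rises and falls in mean CPM, and the 8 largest rises and falls in log2 among genes of at least 50 CPM. Not every gene under the rule appears in the text. Left out, among others, is Eef1a1, with the largest fall in mean CPM (log2 fold change -0.16). Genes outside the rule are marked where they appear. Some results are not reported here. Promoter letters were searched on both strands of RefSeq promoters. Alternatives were DESeq2 1.42.0, limma-voom and limma-trend (limma 3.58.1), other scalings and filters, fewer libraries and the replicate number as a block.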

Additional observations from a re-analysis of the deposited data

How the results depend on the processing

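Leaving out each of the 9 libraries in turn gave 3517 to 3871 genes higher and 3359 to 3679 lower, of which 309 to 341 and 552 to 587 changed by at least 2-fold. Limma-trend on log2(FPKM + 1) called 53 genes higher and 69 lower at 2-fold, where the pseudocount shrinks low genes, and log2(FPKM + 0.1) called 188 higher. Without a filter on low counts 469 genes were higher at 2-fold, as 18039 genes were then tested. DESeq2 called 3238 higher and 2964 lower. Scaling by library size alone moved the median of all genes to -0.053 and called 3018 higher and 4477 lower. Cdk6 reversed to -0.43 and -0.38 and Prdx1 to -0.01 with FPKM at both pseudocounts, and Prdx1 to 0.00 with library size alone, and the cause was not tested. Of 270 named genes 266 kept their call with DESeq2, 253 with FPKM at either pseudocount and 265 with library size alone.

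On the log2(FPKM + 1) scale the list medians shrank to -0.16 (potassium channels), -0.25 (calcium and sodium channels), -0.29 (immediate early) and 0.28 (stromal), with the direction kept. The serine list median went to -0.05 without sh-Pfkp replicate 2, with 8 lower and 3 higher, and the respiratory chain list had 17 higher and 8 lower without sh-Pfkp replicate 1. The medians of SR protein and hnRNP genes and of translation initiation factors turned to -0.02 with library size alone.

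Same-numbered libraries correlated at -0.032, 0.01 and 0.014 in their deviations from the group mean over 10227 genes, and differently numbered ones at -0.029 to 0.018. Deviations taken within groups of 3 are tied to each other and hold much counting noise. Whether same-numbered libraries were handled together cannot be told from these values. With the replicate number as a block 3714 genes were higher and 3721 lower (3673 and 3576 in the 6 libraries alone), of which 294 and 556 changed by at least 2-fold, and 270 of 270 named genes kept their call in the fit of 9 libraries. Depth limits genes under 1 CPM, where the median absolute change was 0.67.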
